A study of Arabidopsis thaliana with 18 samples.

Results

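The widest H3K27me3 domains of Arabidopsis thaliana shoots were described here, as the peaks of 5000 bp or more on chromosomes 1 to 5 in the replicate 1 lists of the wild-type accessions Col and C24 and of their F1 hybrid. The members were selected on measured peak length, so their length and everything else read from the same 3 lists is given as a description. There were 954 such peaks of 4837 in Col (19.7%), 604 of 6244 in C24 (9.67%) and 762 of 5822 in F1 (13.1%), or 2320 of 16903 peaks in all. Overlapping domains of the 3 lists were joined into 1258 loci, with 345 on chromosome 1, 212 on chromosome 2, 241 on chromosome 3, 192 on chromosome 4 and 268 on chromosome 5. The loci spanned 8.36 Mb together, with a median of 6368 bp and a longest locus of 9772 bp.

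H3K27me3 is trimethylation of lysine 27 of histone H3, a mark of genes held silent by Polycomb proteins. Polycomb repressive complex 2 writes the mark, and in plants its catalytic subunit is CURLY LEAF (CLF), SWINGER or MEDEA, of which the first acts through most of vegetative growth. Unlike in animals, the mark in Arabidopsis usually covers single transcribed regions, so a domain of several kilobases is often a long gene with its flanks, or a run of neighbouring genes.

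Shoots of 14-day-old seedlings grown on sucrose plates were used, in short days (8 h of light at 22 °C, then 16 h of darkness at 18 °C). ChIP-seq for H3K27me3 comprised 2 libraries for each wild type (Col, C24 and the F1 of Col x C24) and 1 library for each clf genotype (Col, C24 and the F1 of those mutants). The Col mutant carries the T-DNA insertion SALK_139371, the C24 mutant carries an EMS-induced point mutation that alters the catalytic SET domain, and the clf F1 is the hybrid of that pair. mRNA of the 3 clf groups was sequenced with 3 libraries each, and no wild-type mRNA was used here. The labels name 1 allele per parent. They leave unstated whether replicates are separate cultures, so p-values measure only the spread between these libraries.

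Peaks of replicate 1 held 5236783 to 8266237 tags per list, against 840780 to 1886945 in wild-type replicate 2 and 3359980 to 4094078 in clf. Steps in the values of short genes put the mRNA libraries at roughly 14.9 to 23.8 M reads, an estimate that about 39.3% to 56.6% of those values fitted. CLF mRNA (AT2G23380) was 0.99 to 1.37 RPKM in Col clf, 7.14 to 8.35 in C24 clf and 3.93 to 4.35 in clf F1, where RPKM is the read number per length of gene and depth of library. Of the marker lists, 8 shoot genes summed to 40791 to 54555 RPKM. Of 8 root markers, PYK10 reached 94.2 to 216 RPKM and none of the other 7 exceeded 0.71 in any library.

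Lengths ran up to 9291 bp in Col, 9312 bp in C24 and 9191 bp in F1, and stopped there. Col listed 68 peaks of 8000 to 8499 bp, 54 of 8500 to 8999 bp, 11 of 9000 to 9499 bp and 0 above. The C24 counts in the same bins were 29, 20, 6 and 0, and the F1 counts were 55, 39, 10 and 0. Places where other lists were widest often held no replicate 1 peak at all. Of 167 peaks of 5 kb or more in clf Col, 75 (44.9%) lay where the wild-type Col replicate 1 list has none, against 23.8% of the clf Col peaks of 2 to 5 kb. All 75 lay in a gap longer than the longest listed peak. So did 524 of the 531 clf Col peaks of 2 to 5 kb without a replicate 1 peak, so gap length does not set the wide ones apart. A region without mark and a region wider than these lists hold cannot be told apart, so an absent replicate 1 peak is called only that below. At the lower edge, the shortest Col members were 5000, 5011 and 5012 bp and the peaks just outside were 4998, 4995 and 4992 bp. The edge members were 5001, 5006 and 5014 bp in C24 and 5000, 5009 and 5011 bp in F1, and the peaks just outside were 4998, 4997 and 4993 bp in C24 and 4997, 4994 and 4992 bp in F1.

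**Figure D1:**
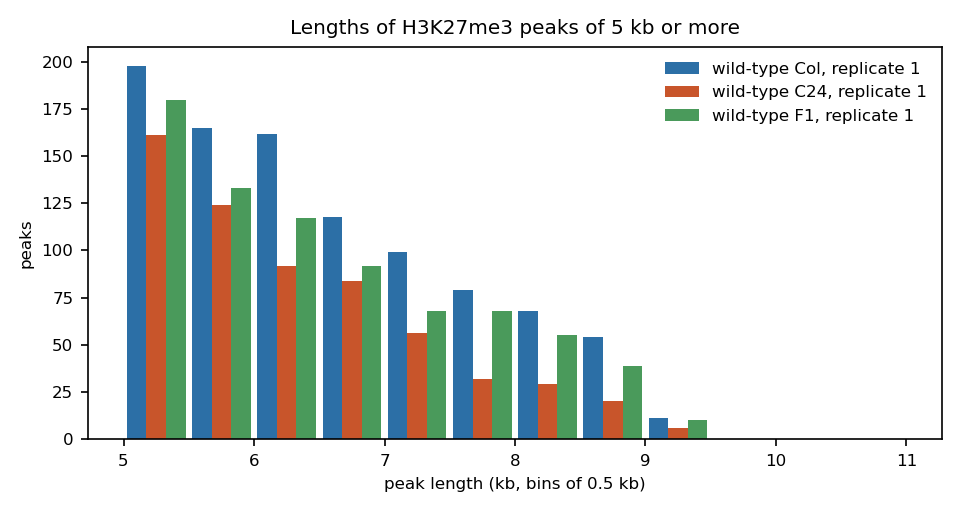
Number of H3K27me3 peaks of 5 kb or more by length in bins of 0.5 kb, for the replicate 1 lists of wild-type Col, C24 and F1. Counts fall with length and reach 0 above 9.5 kb in all 3 lists.

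The domains were broad rather than steep. The authors' fold enrichment had a median of 2.96 over Col domains against 3.90 over Col peaks of 2 to 5 kb, 3.35 against 4.55 in C24 and 3.38 against 4.55 in F1. Only 19.8% of Col domains, 13.4% of C24 domains and 19.3% of F1 domains lay above the median fold of their own list. Tags per kilobase went the other way, with medians of 573 against 424 in Col, 415 against 317 in C24 and 496 against 381 in F1. Among the domains, fold fell with length, with a Spearman rho of -0.47 over 954 peaks in Col, -0.40 over 604 in C24 and -0.40 over 762 in F1. Both values come from the same peak, so this is a description of the lists. Domains took 44.9% of the tags in Col peaks, 31.5% in C24 and 36.7% in F1.

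Domains held 2178 annotated genes with at least 50% of the gene inside a locus, or 6.75% of the 32248 genes matched by locus tag. A locus usually covered 1 gene (510 loci) or 2 genes (447), while 181 held 3, 45 held 4, 9 held 5, 1 held 6 and 65 held none. Protein-coding genes made up 1960 of the 2178. Of 178 microRNA genes, 36 (20.2%) lay in domains. Among symbol families, domains held 21 of 67 WRKY transcription factor genes, 33 of 117 MYB genes, 15 of 79 NAC genes and 34 of 230 CYP genes (cytochromes P450). None of 112 EMB genes, which are needed for embryo development, lay in a domain. These shares are counts over annotated names, with no test.

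Tandem families sat together under single domains. At 56 loci, 2 or more genes carried the same family symbol, 128 genes in all. Of these, 107 averaged under 1 RPKM over the 9 clf libraries. So did 1719 of all 2178 domain genes (78.9%), so low levels are not particular to these families. The run of 4 seed storage albumin genes SESA1 to SESA4 filled 8920 bp on chromosome 4 (13606245 to 13615164, TAIR10), and their mean levels ranged from 0 to 0.168 RPKM. The phosphate-starvation microRNA genes MIR399d to MIR399f lay in 1 locus on chromosome 2 (14441916 to 14447433), and the sulphate-starvation genes MIR395d to MIR395f in another on chromosome 1 (26268125 to 26274222). Both sets are listed at 0, in a library type that enriches polyadenylated RNA. Expansin genes EXPA21 to EXPA25, which loosen cell walls, filled a pair of adjacent loci on chromosome 5 and reached at most 0.0844 RPKM. A defensin-like run of LCR21, LCR22 and LCR23 lay in the only locus with 6 genes, on chromosome 4 (14423607 to 14431005), and was listed at 0. At 40 of the 56 loci all such members averaged under 1 RPKM, and at the others at least 1 member reached it. In the CYP71A22 to CYP71A24 locus the mean levels ran from 0.373 to 17.6 RPKM. In the locus of the lectin genes JAL22 and JAL23 they were 4.80 and 40.9 RPKM. MYB29 and MYB76, regulators of aliphatic glucosinolate synthesis, shared 1 locus with 3.65 and 13.5 RPKM.

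Loci with 5 or more genes numbered 10. In 6 of them every gene averaged under 1 RPKM, among them the locus of the MADS-box genes AGL58 and AGL59 and the run AT4G39745 to AT4G39760, listed at 0 throughout. GSTU15, GSTU16, EDA1 and 2 unnamed genes shared 8535 bp on chromosome 1 (21929516 to 21938050), and the most expressed of these 5 genes averaged 22.7 RPKM. AGL58 and AGL59 held a single peak of 764 bp in Col replicate 2 and of 590 bp in C24 replicate 2, and no peak in any clf list.

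The 10 widest loci ran from 9193 to 9772 bp and held 1 to 3 genes each. The widest lay over the transporter gene ABCB16 on chromosome 3 (10610806 to 10620577), with peaks of 8930, 7632 and 8702 bp in wild-type Col, C24 and F1 replicate 1. Its peaks were 1679, 920 and 3913 bp in replicate 2 and 3223, 3992 and 4129 bp in clf. The widest loci differed in what clf lists kept. At AT5G04690 and its neighbour on chromosome 5 (1345326 to 1354565) the clf peaks stayed at 8663, 8790 and 8699 bp in Col, C24 and F1. At VND7, a master regulator of xylem vessel formation (chromosome 1, 27069411 to 27078701), clf Col and clf F1 kept single peaks of 6952 and 6829 bp, whereas clf C24 held 2 peaks with a longest of 2293 bp. MEA, which encodes the Polycomb methyltransferase MEDEA (chromosome 1, 542958 to 552173), had a domain of 9216 bp in Col and 7700 bp in F1 and no peak in C24 replicate 1. C24 replicate 2 and clf C24 did list peaks there, the longest of 1253 and 4106 bp.

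Of 15 floral MADS-box genes, a group that includes regulators of organ identity, 7 lay in a domain. PISTILLATA (PI), CAULIFLOWER (CAL), SEP2 and SHP2 had domains in all 3 wild-type lists, SEP3 in Col and F1, and AGL6 and AGL13 in Col. The SEP3 domain was 9147 bp in Col and 6753 bp in F1, with a peak of 4769 bp in C24. In clf its longest peaks were 5616 bp in Col, 2610 bp in C24 and 3269 bp in F1.

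Of 16 flowering-time genes, 6 lay in a domain. AGL20, better known as SOC1, an activator of flowering, shared a Col domain of 8541 bp with AGL6 (chromosome 2, 18802891 to 18811431). In each of the other 8 lists this locus was divided into 2 peaks. TFL1, a repressor of floral identity, had domains of 7098, 5508 and 6750 bp in Col, C24 and F1 and clf peaks of 5403, 2633 and 2650 bp at most. MAF1, a floral repressor related to FLC, had domains of 6044 bp in C24 and 5712 bp in F1 (chromosome 1, 28954425 to 28960468). No peak was listed at MAF1 in either Col library or in any clf list.

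Of 16 homeobox and meristem genes, 8 lay in a domain. STM, which keeps stem cells undifferentiated, and its relatives KNAT2 and KNAT6 were domains only in the C24 replicate 1 list, with 5544, 7489 and 8827 bp. The Col and F1 replicate 1 lists hold no peak over these 3 genes, but clf Col lists peaks of 5127, 4497 and 5413 bp there. KNAT1, WOX1, WOX4, PRS and CUC2 were the other 5. WOX1 kept clf peaks of 7519, 7443 and 7417 bp in Col, C24 and F1.

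Of 16 seed genes, 12 lay in a domain, among them the embryo regulators LEC1, LEC2, FUS3 and ABI3 and the storage protein genes CRU2 and SESA1 to SESA4. Over SESA1 to SESA4 the clf peaks were 8473, 9038 and 8679 bp in Col, C24 and F1, against 8920, 8300 and 8398 bp in wild-type replicate 1. LEC1 had a domain of 7601 bp in Col and, in clf, 2 to 3 peaks with a longest of 2202 to 2487 bp. Of 14 genes in triterpene clusters, 4 lay in a domain. Among these, THAS1, the thalianol synthase gene, had a domain of 6274 bp in F1, peaks of 1756 and 1732 bp in clf Col and clf F1, and no peak in any C24 list.

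**Figure D2:**
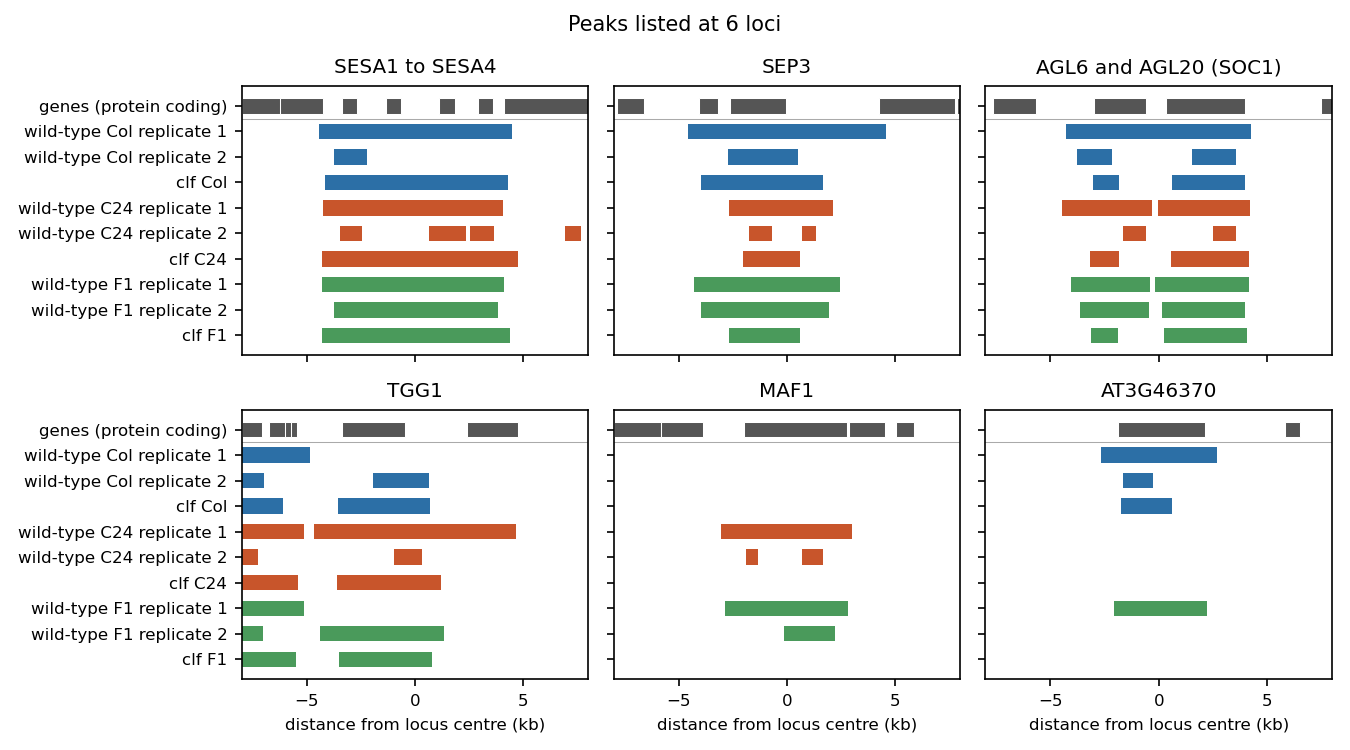
Peaks listed around 6 loci, as distance from the locus centre in kb, with protein-coding genes in grey on the top line and Col, C24 and F1 lists in blue, orange and green. Over SESA1 to SESA4 all 3 clf lists keep a peak over 8 kb, over AGL6 and AGL20 only Col replicate 1 lists 1 peak, at MAF1 no clf list has a peak, and at AT3G46370 no C24 list has a peak.

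The domains were then followed into the lists that did not choose them. A domain was called kept whole where 1 peak covered at least 80% of it, split where 2 or more peaks overlapped it and none reached 80%, and shortened where 1 peak covered less. In the second wild-type library, 0 of 954 Col domains were kept whole, 526 were shortened, 124 were split and 304 had no peak. For C24 the counts were 1, 315, 216 and 72 of 604, and for F1 they were 46, 513, 123 and 80 of 762. In clf of the same accession, 82 Col domains were kept whole, 559 shortened, 263 split and 50 without a peak. The counts were 103, 338, 146 and 17 for clf C24 and 84, 454, 195 and 29 for clf F1. Thus most domains had some peak in clf in all 3 genotypes, and few had 1 peak along their length. At 560 of the 1258 loci all 9 lists held a peak, and at 42 loci no clf list did. Peaks of 5 kb or more remained at 182 loci in at least 1 clf list and at 50 loci in all 3.

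The split share was larger among domains than among shorter peaks in every list, as counts with no test. In clf, 27.6% of Col domains were split against 5.33% of Col peaks of 2 to 5 kb, 24.2% against 7.46% in C24 and 25.6% against 5.77% in F1. Absent peaks ran the other way, with 5.24% of Col domains against 16.5% of Col peaks of 2 to 5 kb in clf, 2.81% against 13.5% in C24 and 3.81% against 13.4% in F1. A longer region has more room for several peaks and for any overlap, so the share of bases was compared too.

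**Figure D3:**
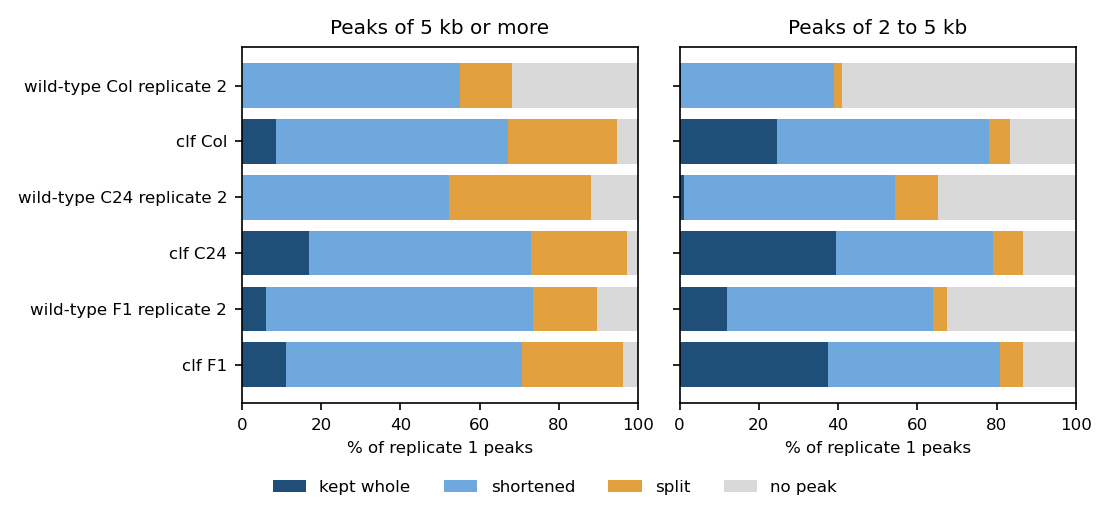
Share of replicate 1 peaks (percent) that were kept whole, shortened, split or without a peak in wild-type replicate 2 and in clf of the same accession, for peaks of 5 kb or more (left) and 2 to 5 kb (right). In every list the split share is larger and the share without a peak smaller among peaks of 5 kb or more.

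By bases, clf peaks covered 50.2% of Col domain sequence, 58.7% of C24 and 53.7% of F1, and wild-type replicate 2 peaks covered 21.1%, 24.96% and 44.2%. The clf lists therefore lay above the replicate 2 lists in all 3 accessions, by 24.1 percentage points on average (54.2% ± 4.27 against 30.1% ± 12.4, SD, n = 3 libraries each; two-sided exact permutation p = 0.1, the smallest that 3 against 3 allows). Tags in peaks were also higher in clf than in replicate 2 in each accession, and their part in this difference was not tested. Peaks of 2 to 5 kb were covered to 55.0%, 63.7% and 62.4% in clf Col, C24 and F1 and to 17.7%, 27.1% and 41.5% in replicate 2. The share for domains minus that for shorter peaks was thus -4.84, -5.04 and -8.66 points in clf and 3.33, -2.13 and 2.70 points in replicate 2. All 3 clf values lay below all 3 replicate 2 values, a difference of -7.48 points with the same exact permutation p = 0.1. With this design no difference can pass 0.05. The 3 genotypes served as replicates in both tests, so SD and p measure the spread between genotypes. Both tests left out that clf and replicate 2 of an accession were scored over the same domains.

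Coverage was highest in the middle of domains and over genes. In clf Col, with each domain cut into 10 equal parts, 20.6% of bases in the first were under a peak, 63.7% in the fifth and 19.8% in the last. The same 3 shares were 35.6%, 69.8% and 33.3% in clf C24 and 29.6%, 68.2% and 30.6% in clf F1. Replicate 2 had the same shape at lower levels, from 3.4% through 32.0% to 3.0% in Col. Bases inside protein-coding genes were covered to 66.5% in clf Col and bases between genes to 37.2%. The pair was 72.9% and 46.8% in clf C24 and 70.0% and 39.5% in clf F1. In replicate 2 it was 31.5% and 12.8% in Col, 42.8% and 10.02% in C24 and 58.6% and 31.6% in F1, so genic sequence was the more covered in all 6 lists. Peaks of 2 to 5 kb showed the same order.

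**Figure D4:**
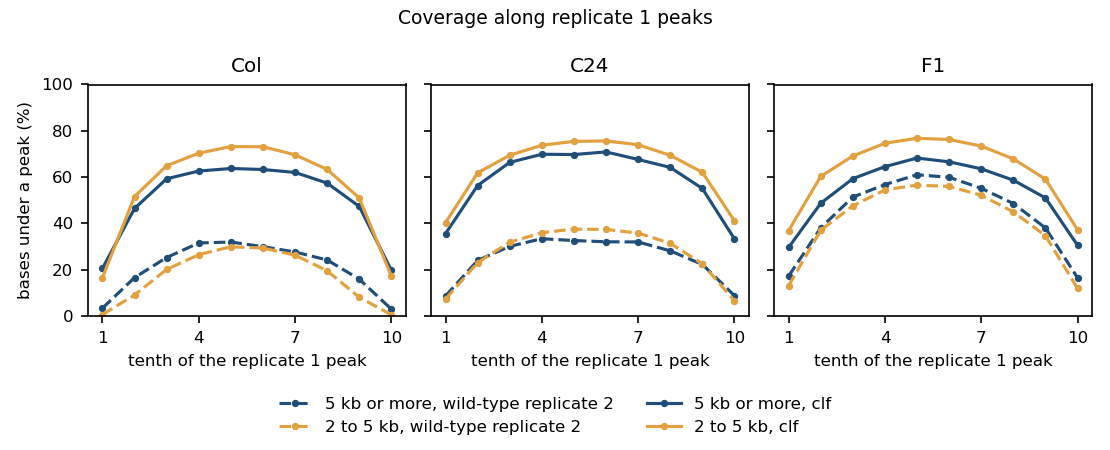
Share of bases under a peak (percent) along replicate 1 peaks cut into 10 equal parts, in wild-type replicate 2 (dashed) and clf (solid) of the same accession, for peaks of 5 kb or more (blue) and 2 to 5 kb (orange). Coverage is highest in the middle in all panels, and in clf the blue line lies under the orange one except at both ends in Col.

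In the 3 clf lists, peaks that touched a domain had a longer median length and a lower median fold than the other peaks. In clf Col, 1184 peaks touching a domain had a median length of 2312 bp and a median fold of 4.87, and the other 4761 peaks had 1638 bp and 5.13. The medians were 2728 bp and 5.05 against 1465 bp and 5.77 in clf C24, and 2523 bp and 5.15 against 1607 bp and 5.54 in clf F1. In wild-type replicate 2 the median folds were 2.43 against 2.5 in Col, 3.75 against 3.52 in C24 and 2.74 against 2.80 in F1, so C24 had the opposite order.

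Between wild-type genotypes, 359 loci (28.5%) were domains in Col, C24 and F1, 207 in Col and F1, 93 in C24 and F1 and 44 in Col and C24. Col had 344 loci to itself, C24 had 108 and F1 had 103. At the 344 loci wide in Col alone, C24 listed shorter peaks at 310 and no peak at 34, and its median coverage was 61.3%. At the 108 loci wide in C24 alone, Col listed shorter peaks at 16 and no peak at 92. Over whole lists, 28.6% of C24 domains and 17.7% of C24 peaks of 2 to 5 kb had no Col replicate 1 peak. In the other direction, 5.87% of Col domains and 10.3% of Col peaks of 2 to 5 kb had no C24 replicate 1 peak. The order of the 3 lists in number of domains was also their order in tags within peaks, and the part of depth in it was not tested.

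mRNA of domain genes was low in all clf groups. The median domain gene had 0.0167 RPKM in Col clf, 0.0267 in C24 clf and 0.0233 in clf F1, against 1.52, 1.83 and 1.51 for all matched genes. Averaged over the 9 libraries, 78.9% of domain genes lay under 1 RPKM, against 46.5% of all matched genes, and 757 of 2178 were listed at 0 in every library. The share of genes that reached 1 RPKM was then read by what clf kept of the domain. In clf Col, it was 18.6% of the 145 genes under domains kept whole, 20.4% of 524 under split ones and 20.1% of 891 under shortened ones. The shares were 18.4%, 19.6% and 24.7% in clf C24 and 20.7%, 18.4% and 20.1% in clf F1. Where no clf peak remained in the domain, they were 29.5% of 61 genes in Col, 42.9% of 21 in C24 and 35.3% of 34 in F1. Read gene by gene the shares did not rise or fall steadily with the part of the gene under a clf peak. Of genes under no clf peak themselves, 17.2% of 384 in Col, 19.3% of 202 in C24 and 15.1% of 298 in F1 reached 1 RPKM. Of genes with at least 50% of their length under a clf peak, 20.5%, 23.2% and 21.1% did. These are counts over neighbouring genes within 1 list each, with no test.

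A few domain genes were expressed strongly. TGG1 and TGG2, the myrosinases that cleave glucosinolates, averaged 1807 and 615 RPKM. Their loci lie side by side on chromosome 5, at 9078192 to 9087503 and 9070431 to 9078014. TGG1 lay under the widest C24 domain (9312 bp), and clf peaks of 4268 to 4792 bp remained there. TGG1 was at 1390, 1397 and 1453 RPKM in Col clf, 1810, 1949 and 1921 in C24 clf and 2081, 2136 and 2122 in clf F1. Next came ESP at 1410, the chloroplast protein gene PIFI at 356, the B-box gene BBX14 at 245, AOP2 at 169, AT2G25450 at 159, PYK10 at 152, SEP3 at 145 and AT2G25510 at 142 RPKM.

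C24 clf and Col clf were compared with limma on log2(RPKM + 1) over the 17819 genes that reached 1 RPKM in 3 or more libraries. Each parent carries its own clf allele, so accession and allele cannot be told apart in any difference between these mutants. The same holds for the mid-parent used for the hybrid. In bulk shoots, fewer cells of a type and less RNA per cell cannot be told apart. Of the 2178 domain genes, 497 passed this filter. Of these, 204 were higher and 106 lower in C24 clf at a Benjamini-Hochberg adjusted p below 0.05, that is 41.0% and 21.3%, while 31.8% and 12.7% of all tested genes were called. The median log2 difference was 0.20 over the tested domain genes and 0.13 over all tested genes. Domain genes sit near the filter, and a gene that passed only in the accession where it is high had to differ. In 60 of the 204 and 27 of the 106 the lower group averaged under 1 RPKM. With no filter, 23.1% of 1421 domain genes were higher against 25.4% of all genes, and 10.8% were lower against 10.2%, with median log2 differences of 0.03 and 0.07. The larger shares among domain genes were therefore not kept without the filter. They were kept with a filter of 5 RPKM. There 45.9% of 246 domain genes were higher against 32.2% of all, and 22.8% were lower against 12.4%. At that limit too, a gene can pass only through the accession where it is high. Quantile normalization, which moved the median of all genes to 0.01, gave 164 higher and 139 lower. That was 33.0% and 28.0% of tested domain genes, against 21.5% and 20.3% of all tested genes. Of the domain calls, 54.1% were higher in place of 65.8%.

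The largest differences included genes of the glucosinolate system. ESP, the epithiospecifier protein that turns glucosinolate breakdown toward nitriles, was at 18.0, 19.0 and 14.6 RPKM in Col clf, 2594, 2597 and 2509 in C24 clf and 1665, 1631 and 1641 in clf F1. It was 7.15 ± 0.08 log2 units higher in C24 clf than in Col clf (± SE, limma, adjusted p = 1.27e-13). Its domain was listed in Col only (8234 bp, chromosome 1, 20169583 to 20177816), and peaks of 2589, 1948 and 2484 bp remained in clf Col, clf C24 and clf F1. AOP2, which makes alkenyl glucosinolates and is annotated as a transcribed pseudogene on the Col reference, was at 2.69, 3.04 and 1.92 RPKM in Col clf and 433, 311 and 332 in C24 clf (log2 difference 6.66 ± 0.15). Clf F1 had 169, 141 and 124. Its domain was wide in all 3 wild-type lists, with clf peaks of 3879, 3628 and 5034 bp. IMS2, also known as MAM3, a chain-elongation enzyme of the same pathway, had a mean of 1.74 RPKM in Col clf and 22.7 in C24 clf. In these 3 genes every C24 clf library lay above every Col clf library, and every clf F1 library lay between.

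Some of the 12 highest genes are known from seeds. Of the seed list, the 2 tested genes in domains were not higher. CRU3, CRA1 and AGL38 of that list, which lie in no domain, were higher by 5.41, 4.32 and 3.35 log2 units. M17, a late embryogenesis gene, was at 0.20, 1.98 and 0.05 RPKM in Col clf, 79.3, 33.8 and 46.7 in C24 clf and 18.7, 2.63 and 13.7 in clf F1 (C24 minus Col 5.04 ± 0.57 log2 units, adjusted p = 2.53e-05, limma). LEA7, another late embryogenesis gene, the β-glucosidase gene BGLU19 and its neighbour AT3G21380 had means of 1.45, 0.363 and 0.280 RPKM in Col clf and 21.4, 14.3 and 10.7 in C24 clf. The 4 seed markers summed to 0.33 to 3.39 RPKM in Col clf, 71.6 to 194 in C24 clf and 2.80 to 53.8 in clf F1, nearly all from CRU3 and CRA1, while SESA1 and SESA2 did not exceed 1.00 in any library. The part of these seed transcripts in the calls was not tested. The remaining genes of the 12 highest were HB21, a homeobox gene that restrains axillary bud growth (0.363 against 16.0 RPKM), AT3G49270, AT3G46500, AT3G28270 and LURP1, a gene induced by an oomycete pathogen. Their log2 differences ran from 2.76 to 3.63.

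The gene with the lowest log2 difference, AT3G46370, was at 15.8, 13.6 and 15.4 RPKM in Col clf, listed at 0 in all 3 C24 clf libraries and at 6.12, 6.64 and 5.32 in clf F1. Col listed peaks of 5367, 1363 and 2370 bp there in replicate 1, replicate 2 and clf, and no C24 list held a peak (chromosome 3, 17050710 to 17056076). A sequence missing or diverged in C24 and a gene that is both unmarked and silent cannot be told apart in these files. AT1G69140 was also listed at 0 in C24 clf, with 5.17 to 9.15 RPKM in Col clf. HR4, of the RPW8 mildew-resistance family, was at 12.9, 17.9 and 16.8 RPKM in Col clf and 0.12, 0.10 and 0.20 in C24 clf (log2 difference -3.88 ± 0.13). MYB23 and GL2, which promote trichome formation, had means of 4.86 and 5.96 RPKM in Col clf and 0.103 and 0.887 in C24 clf. GL2 had a clf Col peak of 6635 bp over its locus (chromosome 1, 30033830 to 30040861), and clf C24 and clf F1 listed none. The malonyltransferase gene PMAT2, the lupeol synthase gene LUP1 and the jasmonate-induced storage gene VSP2 had log2 differences of -2.59, -2.29 and -2.14. AT1G62510, AT3G18320 and AT1G67865 had log2 differences of -2.60, -2.50 and -2.07, and the floral activator AGL20, described with the hybrid, had -2.01.

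**Figure D5:**
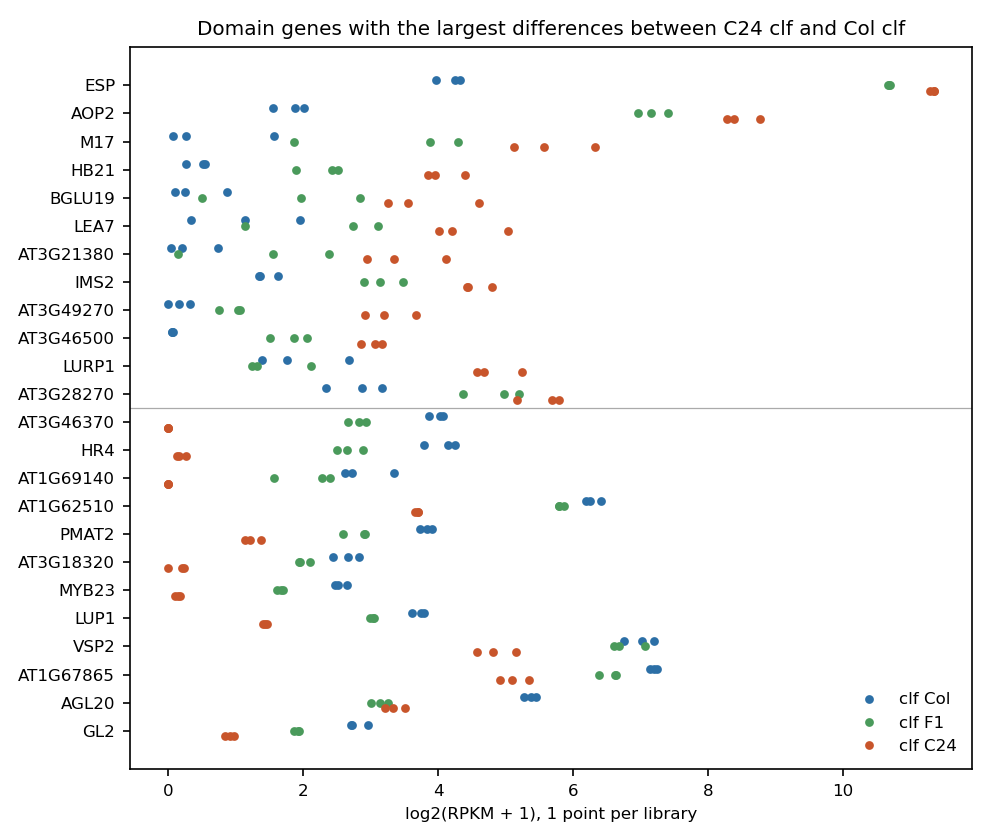
log2(RPKM + 1) in each clf library (Col blue, F1 green, C24 orange) for the 12 highest and 12 lowest domain genes in C24 clf against Col clf, with the higher ones above the line. The C24 and Col points do not overlap in any gene, as the choice of genes required, and F1 points lie between them in most.

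Among the gene lists, to be set against 31.8% higher and 12.7% lower of all tested genes, 3 of the 7 floral MADS-box genes in domains were tested and all 3 were higher in C24 clf. The tested genes of this list outside domains (AG, AP3, SEP1, SEP4, SHP1 and STK) were all higher as well, by 0.40 to 1.81 log2 units. SEP3 was at 47.8, 47.2 and 61.5 RPKM in Col clf, 256, 240 and 285 in C24 clf and 129, 108 and 130 in clf F1 (C24 minus Col 2.30 ± 0.11 log2 units). PI had a mean of 1.62 RPKM in Col clf and 10.01 in C24 clf, and SHP2 at 3.06 to 3.65 and 5.86 to 7.79. The flower markers AG, AP3 and PI summed to 23.8 to 28.7 RPKM in Col clf, 50.5 to 59.96 in C24 clf and 37.7 to 41.2 in clf F1, with AG the most abundant. Their part in these calls was not tested. Of 4 tested flowering-time genes in domains, AGL17 and AGL24 were higher in C24 clf and AGL20 and MAF1 lower. MAF1 was at 29.6, 29.1 and 31.3 RPKM in Col clf, 8.25, 9.38 and 10.1 in C24 clf and 17.6, 17.8 and 15.8 in clf F1 (log2 difference -1.60 ± 0.08). Of 6 tested meristem genes, STM, KNAT1 and KNAT2 were higher, and KNAT6, WOX1 and WOX4 did not pass, with log2 differences of 0.18, -0.20 and -0.10. STM was at 2.23 to 2.78 RPKM in Col clf and 5.89 to 6.91 in C24 clf. Of 2 tested seed genes in domains, DOG1, which controls dormancy, was lower in C24 clf (4.18 to 4.29 against 1.17 to 1.78 RPKM), and PHE1 did not pass (-0.18). None of the 4 triterpene cluster genes passed the filter.

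Where only 1 parent listed a domain, calls went in both directions, and they are to be read against 31.8% higher and 12.7% lower among all tested genes. At 56 loci with a Col domain and no C24 replicate 1 peak, 17 of 87 genes were tested, and 11 were higher and 1 lower in C24 clf. Among the 11, MEA, HB21, CIPK16, AT3G46500, AT3G56220 and AT5G42690 averaged under 1 RPKM in Col clf (0.0433 to 0.977). At 173 loci with a C24 domain and no Col replicate 1 peak, 69 of 300 genes were tested, and 32 were higher and 13 lower. At 28 loci with a Col domain and no peak in any of the 3 C24 lists, 7 of 41 genes were tested, of which 5 were higher and 1 lower. AT3G46500 was among the 5, at 0.04 to 0.05 RPKM in Col clf and 6.24 to 8.02 in C24 clf, and AT3G46370 was the lower one. At 9 loci with a C24 domain and no peak in any Col list, 3 of 9 genes were tested, with 1 higher and 1 lower, the lower being MAF1. A gene near the filter can enter through the group where it is high. Counts without the filter were not made for these sets, so the shares called are no result about the loci.

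Clf F1 was compared with the mid-parent, the arithmetic mean of both clf parents. Of the 497 tested domain genes 13 were above and 38 below it (2.62% and 7.65%), while 0.37% and 6.36% of all tested genes were called above and below (limma, Benjamini-Hochberg adjusted p below 0.05). With the replicate number as a block the counts were 25 and 93 (5.03% and 18.7%, against 1.61% and 23.5% of all). The count below changed to 14 without clf F1 replicate 2 or 3 (2.82% and 2.85%, against 1.10% and 0.93% of all). It was 72 without clf F1 replicate 1 (14.6% against 18.3%). It was 23 and 25 without Col clf replicates 1 and 3 (4.71% and 5.13%, against 3.16% and 3.18%). It was 21 and 20 without C24 clf replicates 2 and 3 (4.40% and 4.20%, against 2.81% and 1.99%). The count above changed to 5 and 3 without clf F1 replicates 2 and 3 (1.01% and 0.61%, against 0.096% and 0.079% of all). Without C24 clf replicate 3 it was 8 (1.68% against 0.20%). Under quantile normalization 13 were above and 22 below (2.62% and 4.43%, against 0.57% and 1.64% of all). With no filter 7 were above and 22 below (0.493% and 1.55%, against 0.168% and 2.05% of all). These counts therefore rest on single libraries, and the genes below are those that passed with the F1 libraries apart from the mid-parent.

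AGL20 had the smallest adjusted p of the genes named here. It was at 40.5, 42.6 and 37.8 RPKM in Col clf, 8.31, 10.4 and 9.10 in C24 clf and 8.57, 7.06 and 7.78 in clf F1, so the hybrid lay at or under the level of C24 (F1 minus mid-parent -1.55 ± 0.09 log2 units, limma adjusted p = 1.67e-05). FLC, a repressor of AGL20 that lies in no domain, was at 10.1 to 11.3 RPKM in Col clf, 131 to 146 in C24 clf and 96.6 to 107.5 in clf F1. SVP, of the same flowering-time list and also in no domain, was at 48.7 to 50.7, 23.3 to 27.4 and 27.9 to 30.6 RPKM. The part of either gene in the AGL20 levels was not tested. LURP1 was at 1.63, 5.39 and 2.39 RPKM in Col clf, 22.9, 36.9 and 24.6 in C24 clf and 1.48, 3.33 and 1.37 in clf F1 (-2.46 ± 0.29). AT3G49270 and ANK, an ankyrin-repeat gene linked to immunity, were lower than the mid-parent as well, by -1.47 and -1.27. AT1G14950 (-1.30) did not pass under quantile normalization, a pseudocount of 0.1 or no filter, nor without Col clf replicate 1 or 3, C24 clf replicate 1 or 3, or clf F1 replicate 2 or 3. Above the mid-parent, the myrosinase gene TGG2 was at 494, 493 and 524 RPKM in Col clf, 535, 516 and 646 in C24 clf and 754, 758 and 813 in clf F1 (0.54 ± 0.07, adjusted p = 0.00348, limma). All 3 F1 libraries of TGG2 lay above all 6 parental ones. AT5G38005, AT4G15670 and AT1G31690 were above it by 0.90, 0.57 and 0.50, and each lost its call without clf F1 replicate 3, the last also without replicate 2 and with no filter. AT5G38005 was listed at 0 in C24 clf and at 0.22, 0.70 and 1.08 RPKM in Col clf, against 1.38, 1.24 and 1.74 in clf F1. It passed the filter only with its F1 libraries, where it is high, and kept its call with no filter. The copper transporter gene COPT2 (0.62) lost its call without clf F1 replicate 2 or 3, Col clf replicate 3, or C24 clf replicate 2 or 3, and with no filter.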

How the data were processed

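H3K27me3 ChIP-seq peak lists (9) and mRNA files (9) of 14-day-old shoots were used. Per the submitters' processing notes, TopHat, Bowtie and the build TAIR10 were used, with no versions. No peak caller, input control or use of strand is given in the sources used here. The tags per peak are counts deposited by the authors without normalization. The score and the fold enrichment ratio of each peak are the authors' own deposited values. No deposited score was under 50. Peaks were deposited per library, with positions counted from 1 and lengths that include both end bases. The mRNA values are RPKM deposited by the authors, 1 file per library.

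The members, gene lists and tests were chosen with earlier results of these data known. A domain was a peak of at least 5000 bp, and overlapping domains were joined into loci. Genes were placed by the RefSeq annotation of TAIR10.1, whose coordinates are not printed, and 32248 of 32992 gene IDs matched by locus tag. As a check of positions, 78.9% of domain genes averaged under 1 RPKM, against 41.3% to 44.9% of genes under the loci moved by 10000 to 50000 bp. Of 34133 lines per mRNA file, 1141 lines of 567 repeated IDs were left out. Depth was estimated by fitting RPKM times gene length in short genes to multiples of 1 read. Only 39.3% to 56.6% of 128 to 148 values per library lay within 0.1 of a whole read, so the depths are rough and no reads were recovered for a count test. An exact 0 is reported as listed at 0.

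Genes that reached 1 RPKM in 3 or more libraries entered limma 3.58.1 (R 4.3.3) as log2(RPKM + 1), with a trended prior and 1 spread shared by the 3 groups. p-values were adjusted by Benjamini-Hochberg over 17819 genes, with a threshold of 0.05. F1 was set against the arithmetic mean of the fitted parental levels with a delta-method standard error. The code was tested on simulated data. Shares of bases were compared over libraries with a two-sided exact permutation test, unpaired, with Col, C24 and F1 as replicates. Replicate numbers come from the labels. Deviations of same-numbered mRNA libraries from their group means correlated at 0.17 to 0.43 in all 9 pairs, so a fit with the number as a block was run too. Named were CLF, the 10 widest loci, loci with 5 or more genes or a gene of 5 lists, the members at the length limit, and the 10 most expressed domain genes. Among called domain genes with library ranges apart, the 12 highest and 12 lowest for the parents and the 5 highest and 5 lowest for the hybrid were named. Loci and genes outside this rule were chosen after their values were seen. Alternatives were other length limits, scores, coverage limits, gene overlaps, filters, pseudocounts, quantile normalization and leaving out each library. Python 3.11.15, pandas 2.3.3 and scipy 1.17.1 were used.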

Additional observations from a re-analysis of the deposited data

Results flagged for a closer look

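The 3 replicate 1 lists also hold peaks of 5 kb or more on the mitochondrial genome, 5 in all (1 in Col, 2 in C24 and 2 in F1), which lie outside chromosomes 1 to 5 and enter no comparison here. The other 6 lists hold 2 each. The longest was 7213 bp, in wild-type Col replicate 1. C24 replicate 2 lists 1 chloroplast peak of 8006 bp. They were set against no background.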

How the results depend on the processing

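The difference of 24.1 points in domain bases covered (clf minus replicate 2) and the relative difference of -7.48 points kept their direction under every alternative run. Leaving out 1 library gave 19.6 to 31.2 and -9.20 to -6.24. With a limit of 4000 bp there were 1936 loci, with 7500 bp 311, and from the replicate 2 lists 106. Asking 1 peak to cover 50% or 95% gave 276 or 3 domains kept whole in replicate 2 (47 at 80%) and 948 or 64 in clf (269). Domain genes higher and lower in C24 clf (204 and 106) numbered 328 and 153 with no filter, 113 and 56 with a filter of 5 RPKM, 335 and 163 with any overlap, and 73 and 25 with 7500 bp. Without 1 library the counts were 170 to 210 and 82 to 107. Above and below the mid-parent (13 and 38) there were 7 and 22 with no filter, 13 and 22 with quantile normalization, 15 and 66 with any overlap, 5 and 14 with 7500 bp, and 3 to 12 and 14 to 72 without 1 library. The replicate block gave 228 and 125 for the parents and 25 and 93 for the hybrid, and all 34 tests of named genes stayed past the threshold under it. The 24 named parental differences passed under all settings, and 5 of the 10 hybrid ones failed in 20 combinations of gene and setting. The clf peak lists have 1 library per genotype, and no mRNA of wild type was used here. Replicate 2 lists hold fewer tags in peaks than the other lists, which limits what an absent peak shows. The cause of these changes was not tested, apart from fewer or more genes and peaks entering.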
